A study of Mus musculus with 29 samples.

Results

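The genes encoded by mitochondrial DNA were taken as all genes of the deposited count table whose symbol, found through the Ensembl identifier, starts with mt-. There were 10 of them among 11959 genes. All RNA-seq libraries came from 1 culture model, 3T3-L1 (mouse fibroblasts that become white fat cells when given adipogenic hormones), and from cells exposed to 10 µM KDM5-C70 (C70), an inhibitor of the KDM5 family of histone demethylases, or to its vehicle DMSO. Exposure ran from day -2, at confluence, to day 0. The day 0 groups were collected then, before differentiation medium. In both treatments the later groups received this medium (dexamethasone, insulin, isobutylmethylxanthine and a PPARγ agonist) from day 0 to day 2, and those of day 7 adipocyte maintenance medium after that. The 29 samples formed 8 groups: at each of days 0, 1 and 2 there were 3 vehicle and 4 C70 libraries, and at day 7 there were 4 of each. The labels do not say whether replicates came from separate cultures, so p-values measure the spread between these samples, which may be technical.

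Mitochondrial DNA is a small circle that is transcribed from both strands into long RNAs, and most coding regions of these RNAs are flanked by tRNAs. Cutting at the tRNAs releases the rRNAs and mRNAs, most of which are then polyadenylated inside the organelle. The mRNAs encode core subunits of complexes I, III and IV and of the ATP synthase, which work only when assembled with many subunits that are made from nuclear genes, and white fat cells make more mitochondria as they differentiate. The 10 genes measured were both rRNAs (mt-Rnr1, the rRNA of the small mitochondrial ribosomal subunit, and mt-Rnr2, that of the large subunit), the methionine tRNA mt-Tm, 5 complex I subunits (mt-Nd1, mt-Nd2, mt-Nd4, mt-Nd5 and mt-Nd6), cytochrome b of complex III (mt-Cytb) and the first subunit of cytochrome c oxidase (mt-Co1). The GENCODE M21 annotation of GRCm38 lists 37 genes on the mitochondrial chromosome, of which 2 of 2 rRNA, 1 of 22 tRNA and 7 of 13 protein-coding genes were in the table. The 6 other protein-coding genes, mt-Co2, mt-Co3, mt-Atp6, mt-Atp8, mt-Nd3 and mt-Nd4l, were not analysed here.

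In GRCm38 the genes stand in the order mt-Rnr1 (chrM:70-1024), mt-Rnr2 (chrM:1094-2675), mt-Nd1 (chrM:2751-3707), mt-Tm (chrM:3845-3913), mt-Nd2 (chrM:3914-4951), mt-Co1 (chrM:5328-6872), mt-Nd4 (chrM:10167-11544), mt-Nd5 (chrM:11742-13565), mt-Nd6 (chrM:13552-14070) and mt-Cytb (chrM:14145-15288). Each is a single exon, and mt-Nd6 alone is on the minus strand. Their 3′ ends are shown because the genome leaves the stop codon of some mRNAs to be finished by the poly(A) tail. The last 24 bases of each annotated mRNA, from GENCODE M21, with the terminal stop codon or partial stop codon in capitals, were:
mt-Nd1: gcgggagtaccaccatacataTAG
mt-Nd2: ctagccccccaactaattaccTAG
mt-Co1: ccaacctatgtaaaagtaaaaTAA
mt-Nd4: aactaattacaggcctgacaataT
mt-Nd5: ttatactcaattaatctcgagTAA
mt-Nd6: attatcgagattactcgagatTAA
mt-Cytb: acaaaatactaaaattatatccaT
In mt-Nd4 and mt-Cytb the annotated sequence stops at a single T, so that a complete stop codon is not encoded.

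Pairs of these genes also touch or overlap. The 69 bases of mt-Tm end at the base before mt-Nd2 starts, so that a read over this border contains both, and the tRNA is given whole because its count was the lowest of the 10. The ends of mt-Nd5 and mt-Nd6 run into each other on opposite strands, and their last 30 bases are given with the 14 shared positions in capitals.
mt-Tm: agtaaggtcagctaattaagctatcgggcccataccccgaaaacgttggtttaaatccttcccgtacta
mt-Nd5: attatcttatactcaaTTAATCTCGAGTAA
mt-Nd6: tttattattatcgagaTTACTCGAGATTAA
The libraries were strand-specific by the labels, but whether the counting used strand is not given in the sources used here. Without it, reads of mt-Nd6 and of RNA made from the opposite strand over the same bases cannot be told apart.

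Some of these genes have near-identical copies in the nuclear genome, and how reads that match several places were counted is not given in the sources used here. By blastn against the annotated transcripts, with at least 95% identity over at least 60 bases, mt-Co1, mt-Nd2, mt-Nd4 and mt-Nd5 had at least 1 such copy. The copy of mt-Nd4, Gm28439 on chromosome 1, matched 876 bases (63.6% of the gene) at 100% identity, and for mt-Co1 Gm13340 on chromosome 2 matched the whole gene at 97.6%. A further match of mt-Co1, Gm29216 on chromosome 1, covered 483 bases (31.3%) at 99.8%. No copy was found for mt-Rnr1, mt-Rnr2, mt-Nd1, mt-Tm, mt-Nd6 and mt-Cytb. Copies outside annotated transcripts could not be found this way, and for mt-Tm, of 69 bases, nearly the whole gene had to match. As far as annotated copies go, and in no other respect, levels of the 4 genes with copies are less certain than those of the other 6.

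Libraries held 16320275 to 24037170 counts, and their scaling factors by TMM (trimmed mean of M values) were 0.898 to 1.08. Levels are given as CPM, the counts scaled to a TMM-adjusted library of 1000000. A gene was called changed when the edgeR quasi-likelihood test gave a Benjamini-Hochberg adjusted p under 0.05 over all 11959 genes and the higher level exceeded the lower by more than 25%. No 2 replicates of a group were duplicates: the chi-square per degree of freedom between replicates was 2.66 or more in all 39 pairs. Adipocyte markers were in the table for 15 of 15 genes and summed to 1436.0 to 1706 CPM at day 0 and 34270 to 40540 CPM at day 7. Of 8 macrophage and endothelial markers only Cd68, a lysosomal protein best known from macrophages, was in the table. It was at 1.13 to 1.67 CPM in vehicle and 18.7 to 19.8 CPM in C70 libraries at day 0, and was called higher after C70 at days 0, 1 and 2 (log2 fold change 3.85 ± 0.15, 2.90 ± 0.14 and 2.06 ± 0.16, SE) but not at day 7. Its part in the mitochondrial values was not tested.

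The share of all counts that fell in the 10 genes was higher on days 1, 2 and 7 than on day 0 and, at day 7, was higher after C70. It was 2.84, 2.88 and 3.01% in the vehicle libraries at day 0 and 2.703, 2.58, 2.71 and 2.85% in the C70 libraries. At day 1 the ranges were 3.99 to 4.17% and 3.99 to 4.26%, and at day 2 they were 5.35 to 5.61% and 5.29 to 5.70%, so that the treatments overlapped on each of these days. At day 7 the vehicle libraries held 5.69, 5.53, 5.83 and 5.78% and the C70 libraries 7.08, 7.94, 7.19 and 6.64%. The groups did not overlap at day 7, and all 4 C70 libraries were above every other library of the series. The share needs no scaling between libraries, and is given as a description, with no test, because the genes were chosen with earlier results known. Without the rRNAs, it was 4.93 to 5.36% in vehicle and 6.09 to 7.17% in C70 libraries at day 7.

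**Figure D1:**
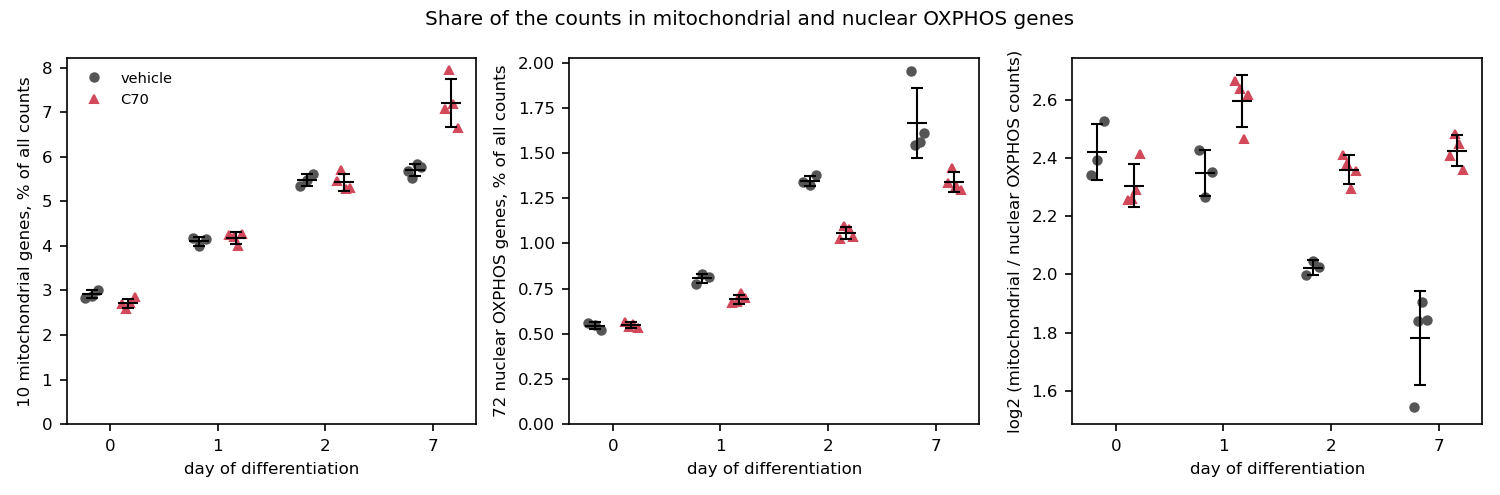
Percent of all counts in the 10 mitochondrial genes (left), percent in 72 nuclear OXPHOS genes (middle) and log2 ratio of the 2 sums (right), by day of differentiation. Circles are vehicle and triangles C70 libraries, and bars are the mean ± SD. At day 7 the C70 libraries hold 6.64 to 7.94% of their counts in mitochondrial genes against 5.53 to 5.83% in vehicle, while the nuclear share is lower.

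In vehicle cells the mRNAs made up most of these counts before differentiation. Per kilobase of gene length, the day 0 vehicle means ± SD (n = 3) were 5568 ± 69.4 CPM for mt-Co1, 4287 ± 90.2 for mt-Cytb, 3468 ± 67.9 for mt-Nd1, 2844 ± 228 for mt-Nd5, 2106 ± 62.4 for mt-Nd2 and 1236 ± 35.1 for mt-Nd4. Reads of mt-Co1, mt-Nd5, mt-Nd2 and mt-Nd4 may have been shared with nuclear copies, whose part in this order was not tested. The neighbours in it were separated by more than their SDs, which measure only the spread between libraries. Below them came mt-Rnr2 at 860.5 ± 113 and mt-Rnr1 at 708 ± 80.2 CPM per kilobase, 2 rRNAs whose difference was within their summed SDs, then mt-Nd6 at 144 ± 16.01 and mt-Tm at 18.9 ± 5.04. The rRNAs thus stood below 6 of the 7 mRNAs, in libraries that the labels say were made with an mRNA-Seq kit and the study calls total RNA-sequencing, and what part of the cells' mitochondrial rRNA they capture was not tested. By mean CPM over all 29 libraries mt-Co1 was the most abundant gene of the table but 1 (rank 2), mt-Cytb had rank 4, mt-Nd5 rank 5, mt-Nd6 rank 1398 and mt-Tm rank 11386. In single libraries the ranks ran from 1 to 5 for mt-Co1, 23 to 327 for mt-Rnr1, 435 to 4417 for mt-Nd6 and 9452 to 11924 for mt-Tm.

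During normal differentiation, which is what the vehicle series measures, every mitochondrial transcript rose. By day 2, 10 of 10 were called higher than at day 0, against 33.4% of all genes, and by day 7 again 10 of 10, against 36.7%. At day 1 only 6 were called, against 26.2%, and these were 6 of the 7 mRNAs: mt-Cytb (log2 fold change 0.66 ± 0.06 (SE), adjusted p = 6.79e-11), mt-Nd4 (0.55), mt-Nd2 (0.47), mt-Co1 (0.45), mt-Nd1 (0.44) and mt-Nd5 (0.44). The rRNAs and the tRNA were not called at day 1: mt-Rnr1 had a log2 fold change of 0.06, mt-Rnr2 -0.30 and mt-Tm -0.39, with adjusted p from 0.187 to 0.791. These values moved with single libraries, from -0.05 to 0.20 for mt-Rnr1, -0.43 to -0.14 for mt-Rnr2 and -0.66 to -0.10 for mt-Tm on leaving out each in turn. The value nearest 0 was without vehicle replicate 1 of day 1 for mt-Rnr2 and without replicate 2 for mt-Tm. Of the members, mt-Nd6, the complex I subunit of the other strand, had a log2 fold change of 0.29 at day 1 (adjusted p = 0.0377), which is under the fold threshold.

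The levels of the other abundant mRNAs show the same course in single libraries. mt-Cytb had 4791, 4929.6 and 4992 CPM in vehicle libraries at day 0, then 7606, 7672 and 7972 on day 1, then 8869, 9613 and 9650.3 on day 2. mt-Co1 had 8482, 8634 and 8689 CPM at day 0, then 11947, 11321 and 11863 on day 1, then 14349.6, 14935 and 15411 on day 2. For both genes each day lay above the day before without overlap. mt-Nd1, a subunit at the membrane end of the quinone site of complex I, had 3244, 3358 and 3354 CPM at day 0, then 4491, 4458 and 4548 on day 1, then 7859, 8227 and 8370.4 on day 2. mt-Nd2, another membrane subunit of complex I, had 2129, 2173 and 2256, then 3122, 2933 and 3041, then 5234, 5373 and 5524 CPM. At day 7 the vehicle libraries had 7001 to 7732 CPM of mt-Nd1, all below those of day 2, and 4879.7 to 6395 CPM of mt-Nd2, a range that takes in that of day 2. The scarcest mRNA, mt-Nd6, had 78.3, 65.5 and 81.1 CPM at day 0 and 100.2, 85.7 and 89.0 at day 1, then 170.4, 173 and 197 CPM on day 2. At day 2 the vehicle log2 fold changes from day 0 lay between 0.67 and 1.30, with a median of 0.93.

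The transcripts did not all rise by the same amount. From day 0 to day 7 the vehicle levels changed most for mt-Rnr1 (log2 fold change 1.86 ± 0.19 (SE), adjusted p = 1.42e-10), mt-Nd4 (log2 fold change 1.64 ± 0.07 (SE), adjusted p = 5.11e-20) and mt-Nd6 (log2 fold change 1.60 ± 0.12 (SE), adjusted p = 1.05e-13), and least for mt-Nd5 (log2 fold change 0.56 ± 0.07 (SE), adjusted p = 5.47e-09). mt-Nd5, whose product is a proton-pumping subunit of complex I, had 4946, 4948 and 5668 CPM at day 0, then 7994, 8145 and 8561 on day 2, then 7403, 6893, 7694 and 8645 on day 7. For mt-Nd4, another pumping subunit whose gene lies just before that of mt-Nd5 on the same strand, the levels were 1687, 1665 and 1758, then 2948, 3288 and 3319.7, then 5821, 4799, 5169 and 5389 CPM. The vehicle ranges of mt-Nd5 overlapped between days 2 and 7, whereas those of mt-Nd4 did not.

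The ratio of these transcripts within a library is free of scaling. The log2 ratio of mt-Nd4 to mt-Nd5 counts lay between -1.69 and -1.31 in all 21 libraries of days 0, 1 and 2. At day 7 it was -0.35, -0.52, -0.57 and -0.68 in vehicle and -0.89, -0.73, -0.83 and -1.005 in C70 libraries. The day 7 libraries were therefore above all earlier ones, and at day 7 the treatments did not overlap. The log2 ratio of mt-Nd6 to mt-Nd5, genes of opposite strands, was -5.55, -5.55 and -5.44 in vehicle and -5.98, -6.09, -6.31 and -6.16 in C70 libraries at day 2, without overlap. It overlapped at day 7, with -5.45 to -4.69 in vehicle and -5.22 to -5.13 in C70. These ratios were chosen after their values were seen, and no test was made of them. The part of nuclear copies of mt-Nd4 and mt-Nd5, and of opposite-strand RNA in the mt-Nd6 counts, was not tested.

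**Figure D2:**
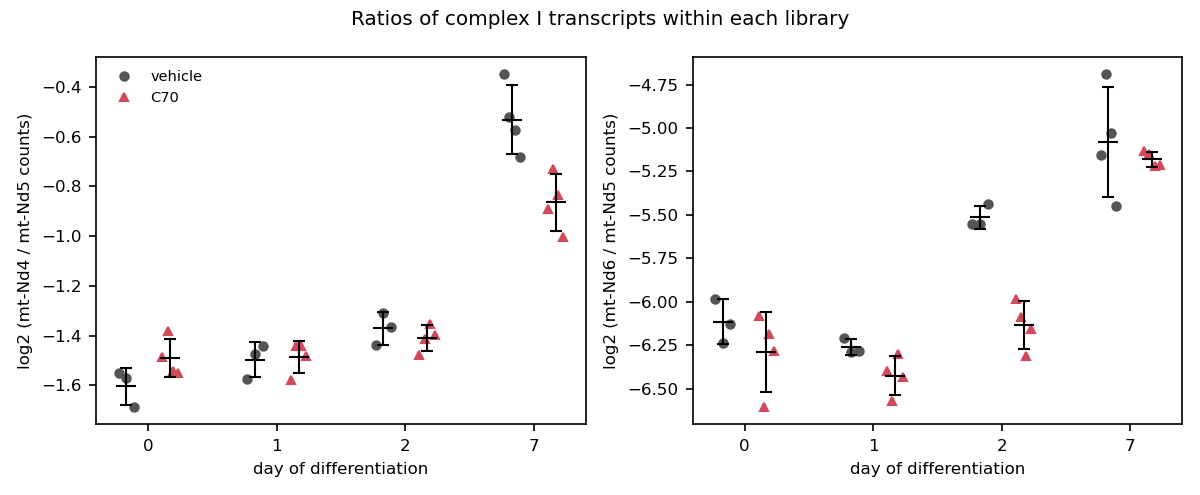
Log2 ratio of mt-Nd4 to mt-Nd5 counts (left) and of mt-Nd6 to mt-Nd5 counts (right) in each library, by day. Circles are vehicle and triangles C70 libraries, and bars are the mean ± SD. The left ratio is between -1.69 and -1.31 through day 2 and between -1.005 and -0.35 at day 7.

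The next comparison asks what the C70 pre-treatment did at its end, before differentiation began. At day 0 no mitochondrial gene was called, against 8.97% of all genes. With the edgeR quasi-likelihood test 2 had an unadjusted p under 0.05, and DESeq2 called 1, mt-Tm (log2 fold change -0.86, DESeq2 adjusted p = 0.0391, with 0.0271 to 0.375 over all alternatives). The edgeR log2 fold changes were negative for 9 of 10 genes, from -0.86 ± 0.35 (SE) for mt-Tm to 0.01 ± 0.07 for mt-Nd4, with a median of -0.10 beside a median over all genes of -0.0004. mt-Tm had 42, 23 and 22 counts in the vehicle and 20, 10, 11 and 20 in the C70 libraries, which is the depth its value rests on. Its CPM ranges did not overlap between treatments, but for the other 9 genes the CPM ranges did. Of all genes, 16% had every C70 library below every vehicle library at day 0. Among the 9, mt-Nd6 had 78.3, 65.5 and 81.1 CPM in vehicle and 68.9, 47.6, 66.7 and 65.8 CPM in C70 libraries, where replicate 2 stood apart.

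At day 1, 1 day into differentiation, 1 of 10 genes was called, the rRNA mt-Rnr2, and none was called without vehicle replicate 1 of that day. mt-Rnr2 had 853, 1172 and 1303 CPM in vehicle and 1945, 1443, 1513 and 1955 CPM in C70 libraries, and the groups did not overlap. It was called higher (log2 fold change 0.63 ± 0.19 (SE), adjusted p = 0.00806). The 1 of 10 compares with 13.6% of all genes called higher, so the count was no greater than the background. mt-Rnr1 had 564, 742 and 809.8 CPM in vehicle and 1047, 822, 831 and 1046 CPM in C70 libraries, also without overlap, but did not pass the test (log2 fold change 0.41 ± 0.18 (SE), adjusted p = 0.0662). Vehicle replicate 1 was the lowest library for both rRNAs, and without it mt-Rnr2 was no longer called (log2 fold change 0.47, edgeR adjusted p = 0.0731, with 0.000112 to 0.0731 over all alternatives). The 7 mRNAs had log2 fold changes from -0.08 to 0.12, and adjusted p from 0.0553 to 0.765. Of these only mt-Nd4 had CPM ranges without overlap (2488, 2417 and 2557 in vehicle, 2662, 2740.2, 2575 and 2645 in C70). Of all genes, 24.4% had every C70 library above every vehicle library at day 1. mt-Tm rested on 24, 12 and 29 counts in vehicle and 42, 30, 22 and 18 in C70 libraries, and its difference did not pass (log2 fold change 0.52 ± 0.33 (SE), adjusted p = 0.218). Its log2 fold change lay between 0.24 and 0.79 on leaving out each library in turn.

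The rRNA levels varied between replicates more than those of the mRNAs did. The biological coefficient of variation was 0.161 for mt-Rnr1 and 0.169 for mt-Rnr2, compared with 0.0483 to 0.0710 for mt-Nd1, mt-Nd2, mt-Co1, mt-Nd4, mt-Nd5 and mt-Cytb and 0.0594 in common over all genes. mt-Nd6 had 0.103 and mt-Tm 0.188. Both rRNAs together made up 3.67 to 5.40% of the mitochondrial counts in vehicle and 5.51 to 7.25% in C70 libraries at day 1, and 6.60 to 10.4% and 5.89 to 7.66% at day 2. Day 2 vehicle replicate 1 held the most of that day, with 10.4%, and day 7 vehicle replicate 1 the most of all, with 11.8%.  The nuclear-retained RNAs Malat1, Neat1 and Kcnq1ot1 summed to 1465 to 1931 CPM in vehicle and 2001 to 2134 CPM in C70 libraries at day 1, and 3 of 3 were called higher. On that day 10 of 15 adipocyte markers were called lower and 6 of 10 preadipocyte and fibroblast markers higher (1 lower), against 7.80% of all genes called lower and 13.6% higher. The part of these RNAs and markers in the rRNA values was not tested.

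At day 2, 1 of 10 genes was called, as lower, against 13.6% of all genes called lower, so again the count was no greater than the background. It was mt-Nd6, the complex I subunit on the other strand. It had 170.4, 173 and 197 CPM in vehicle and 150.3, 142, 107 and 119.7 CPM in C70 libraries, which did not overlap. Its difference passed both thresholds (log2 fold change -0.47 ± 0.11 (SE), adjusted p = 0.000679). Whether RNA of the opposite strand entered the mt-Nd6 counts was not tested. Without a fold threshold, a 2nd gene passed. mt-Nd1 had 7859, 8227 and 8370.4 CPM in vehicle and 7166, 7732, 7210.3 and 6925 CPM in C70 libraries, again without overlap, and its difference passed the adjusted p but was smaller than the fold threshold (log2 fold change -0.17 ± 0.05 (SE), adjusted p = 0.00694). At day 2, 29% of all genes had every C70 library below every vehicle library. The other 8 genes overlapped between treatments, with log2 fold changes from -0.31 for mt-Rnr1 to 0.14 for mt-Nd5 and adjusted p of 0.082 or more. The value of mt-Rnr1 was -0.14 without vehicle replicate 1 of that day, the highest of its group, and lay between -0.40 and -0.14 on leaving out each library. On the same day 12 of 15 adipocyte markers were called lower and 9 of 10 preadipocyte and fibroblast markers were called higher, against 13.6% of all genes called lower and 16.9% called higher. In a culture sampled in bulk, fewer differentiated cells and less RNA per cell cannot be told apart, and the part of these markers in the mitochondrial values was not tested.

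**Figure D3:**
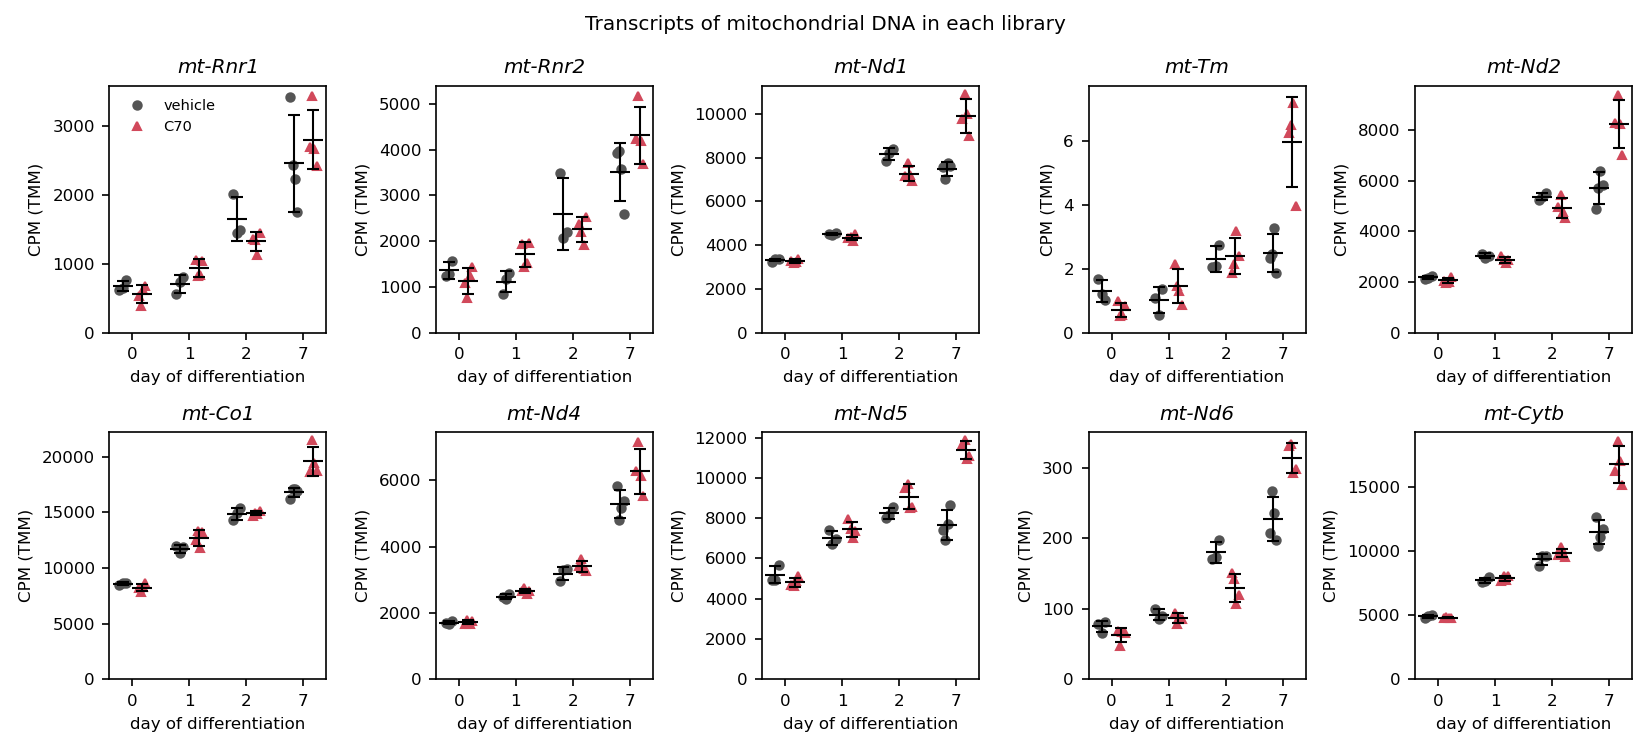
TMM-scaled CPM of each mitochondrial gene in each library, by day of differentiation. Circles are vehicle and triangles C70 libraries, and bars are the mean ± SD (n = 3 vehicle and 4 C70 at days 0, 1 and 2, n = 4 of each at day 7). All 10 genes are higher at day 7 than at day 0 in both groups, and at day 7 the C70 libraries lie above all vehicle libraries for 7 of the 10 genes, as they do for 16.5% of all genes.

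By day 7, when the cells had been without C70 for 7 days, mitochondrial transcripts were higher in the C70 group. With the edgeR quasi-likelihood test, 6 of 10 genes were called higher and none lower, against 14.3% of all genes called higher. The log2 fold changes were positive for 10 of 10, with a median of 0.44 beside a median over all genes of 0.0038. For 7 of 10 genes every C70 library was above every vehicle library, which held for 16.5% of all genes. The nuclear-retained RNAs summed to 1903 to 2690.0 CPM in vehicle and 2644 to 2927 CPM in C70 libraries at day 7, and 2 of 3 were called higher, Malat1 (0.40 ± 0.11) and Kcnq1ot1 (0.61 ± 0.14, log2 fold change ± SE). On that day 9 of 10 preadipocyte and fibroblast markers and 2 of 15 adipocyte markers were called higher, against 14.3% of all genes. The preadipocyte and fibroblast markers summed to 4362 to 5325 CPM in vehicle and 8822 to 10540 CPM in C70 libraries. The part of these RNAs and markers in the mitochondrial values was not tested. Quantile normalization left 2 calls, against 17.6% of all genes called in either direction, and a fold change of 1.5 left 1, mt-Tm, against 8.80%.

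Among the complex I genes, mt-Nd5 had 7403, 6893, 7694 and 8645 CPM in vehicle and 11639, 11892, 10919 and 11092 CPM in C70 libraries (log2 fold change 0.57 ± 0.06 (SE), adjusted p = 7.9e-09). For mt-Nd2 the vehicle libraries had 4879.7, 5733, 6395 and 5824 CPM and the C70 libraries 8294, 9378, 8264 and 7033 CPM (log2 fold change 0.53 ± 0.07 (SE), adjusted p = 3.47e-07). mt-Nd1 had 7583, 7001, 7732 and 7612 CPM in vehicle and 9749, 10886, 9981 and 8986 CPM in C70 libraries (log2 fold change 0.40 ± 0.05 (SE), adjusted p = 4.2e-08). All 3 were called and did not overlap. mt-Nd6, lower at day 2, was now higher, with 208, 267, 236 and 198 CPM in vehicle and 332, 334, 293 and 299 CPM in C70 libraries (log2 fold change 0.47 ± 0.10 (SE), adjusted p = 0.00044). Only mt-Nd4 of the 5 was not called: its 5821, 4799, 5169 and 5389 CPM in vehicle and 6281, 7168, 6121 and 5528 CPM in C70 libraries overlapped, and its change (log2 fold change 0.24 ± 0.06 (SE), adjusted p = 0.00152) was below the fold threshold.

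mt-Cytb, the heme-bearing core of complex III and an mRNA that ends in a partial stop codon, had 12715, 10440.0, 11158 and 11748 CPM in vehicle and 16259.8, 18613, 17109.6 and 15221 CPM in C70 libraries. It had the lowest adjusted p of the 10 (log2 fold change 0.55 ± 0.05 (SE), adjusted p = 1.33e-09). mt-Co1, which carries the oxygen-reducing site of complex IV, had 16256, 17137, 17072 and 16897 CPM in vehicle and 18676, 21518, 19444 and 18751 CPM in C70 libraries. These did not overlap either, but the change (log2 fold change 0.22 ± 0.05 (SE), adjusted p = 0.000357) was below the fold threshold. Per kilobase, mt-Co1 had 10900.0 ± 261 CPM and mt-Cytb 10066 ± 841 CPM in vehicle cells at day 7 (mean ± SD, n = 4), and after C70 mt-Cytb had 14686 ± 1253 and mt-Co1 12684 ± 858 CPM. Within libraries, mt-Cytb was above mt-Co1 per kilobase in 4 of 4 C70 and in 1 of 4 vehicle libraries. The part of nuclear copies of mt-Co1 in these levels was not tested.

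The tRNA gene mt-Tm had the largest fold change of the 10 and the fewest counts. It had 40, 44, 67 and 34 counts in vehicle and 117, 110, 121 and 75 counts in C70 libraries, or 2.33, 2.48, 3.28 and 1.86 CPM and 6.27, 6.51, 7.20 and 3.96 CPM. The groups did not overlap and it was called higher (log2 fold change 1.248 ± 0.22 (SE), adjusted p = 2.41e-05). How reads that run across its border with mt-Nd2 were counted is not given in the sources used here. Neither rRNA was called at day 7: mt-Rnr1 had 3416, 2427, 2231 and 1751 CPM in vehicle and 2695, 3428, 2662 and 2425 CPM in C70 libraries (log2 fold change 0.19 ± 0.16 (SE), adjusted p = 0.37), and mt-Rnr2 had 3919, 3973, 3585 and 2605 and 4225, 5174, 4186 and 3687 CPM (log2 fold change 0.29 ± 0.17 (SE), adjusted p = 0.174). Vehicle replicate 1 was the highest of its group for mt-Rnr1, and without it mt-Rnr1 was called higher (log2 fold change 0.40, edgeR adjusted p = 0.0266, with 0.0266 to 0.865 over all alternatives). On leaving out each library in turn, the log2 fold change lay between 0.06 and 0.40 for mt-Rnr1 and between 0.17 and 0.36 for mt-Rnr2.

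As parts of the mitochondrial counts, the genes shifted against each other. mt-Co1 made up 30.7 ± 0.771% of them in vehicle at day 0 (mean ± SD, n = 3), 27.8 ± 1.26% in vehicle at day 7 and 24.6 ± 0.757% in C70 at day 7 (n = 4 each). mt-Nd5 went from 18.5 ± 0.845% to 12.6 ± 1.15% in vehicle, and was at 14.3 ± 0.833% after C70. mt-Cytb went from 17.5 ± 0.338% to 18.95 ± 1.19%, and was at 21.1 ± 0.396% after C70. Within this pool mt-Co1 was thus lower, and mt-Nd5 and mt-Cytb higher, in C70 than in vehicle means at day 7, which is a change of parts and says nothing of the pool's size. No test was made of these parts.

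**Figure D4:**
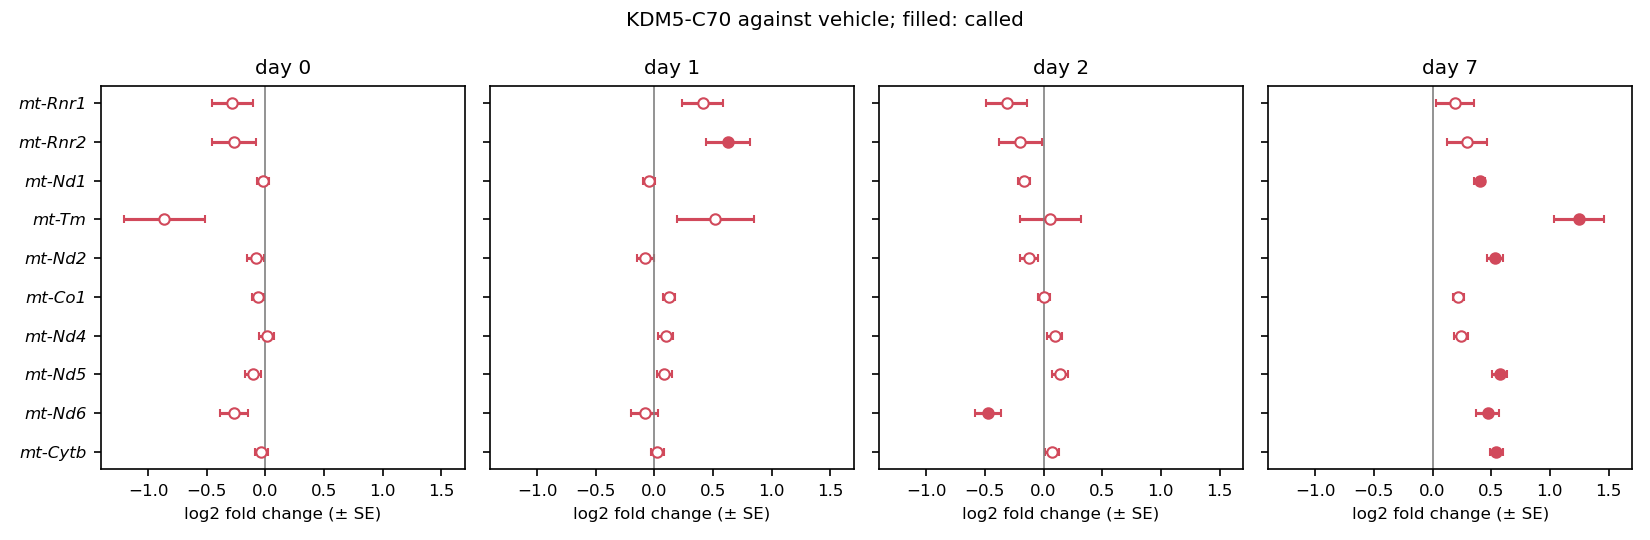
Log2 fold change of C70 against vehicle for each mitochondrial gene at days 0, 1, 2 and 7, with standard errors from the edgeR fit. Filled points were called and open points were not. No gene is filled at day 0, 1 each at days 1 and 2, and 6 at day 7.

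Each treatment was also compared with its own day 0. After C70, 10 of 10 genes were called higher at day 1, against 25.8% of all genes, at day 2, against 31.0%, and at day 7, against 35.9%. The median log2 fold change of the 10 from day 0 to day 7 was 1.90 after C70 and 1.30 in vehicle. Largest after C70 were mt-Tm (3.03 ± 0.26, SE), mt-Nd6 (2.34 ± 0.11) and mt-Rnr1 (2.33 ± 0.17). The C70 comparisons share their day 0 libraries with one another, as do the vehicle ones, so the days are not independent of each other.

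Whether the C70 difference itself changed between days was tested by interaction terms of the same edgeR fit. Against day 0, the C70 difference at day 7 was called larger for 6 of 10 genes, against 14% of all genes: mt-Tm (2.11), mt-Nd6 (0.74), mt-Nd5 (0.68), mt-Nd2 (0.61), mt-Cytb (0.58) and mt-Nd1 (0.43, all as log2, adjusted p from 7.35e-07 to 0.000433). At day 1 it was called larger than at day 0 for 3 of 10, against 8.68%: mt-Tm (log2 fold change 1.38 ± 0.48 (SE), adjusted p = 0.0394), mt-Rnr2 (log2 fold change 0.90 ± 0.26 (SE), adjusted p = 0.0146) and mt-Rnr1 (log2 fold change 0.69 ± 0.25 (SE), adjusted p = 0.0494). These 3 were the RNAs that are not translated. Of them only mt-Rnr2 was called at day 1 itself, and their day 0 differences, none called, were -0.86 (mt-Tm), -0.27 (mt-Rnr2) and -0.28 (mt-Rnr1). mt-Tm rested on 10 to 42 counts per library at days 0 and 1. None of the 10 passed without day 1 vehicle replicate 1. On removing any of 5 other libraries (vehicle replicate 1 or 3 or C70 replicate 2 of day 0, vehicle replicate 2 or C70 replicate 1 of day 1) 1 passed. At day 2 no gene was called, against 26.6% of all genes, with 2 genes at an unadjusted p under 0.05 in the edgeR test and 0 called by DESeq2.

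The nuclear genes for the same complexes had negative C70 differences at day 7, relative to the median gene. Of 73 nuclear subunits of complexes I, III, IV and the ATP synthase, 72 were in the table, of which 71 were called higher in day 7 than in day 0 vehicle cells, against 36.7% of all genes (median log2 fold change 1.64). After C70, 34 of 72 were called lower at day 7, against 4.85% of all genes, none was called higher, and the median was -0.32. The count depended on 1 library. Without day 7 vehicle replicate 1, which had the highest nuclear share (1.95% of its counts, against 1.55 to 1.61% in the 3 others), 6 were called lower and the median was -0.20. At day 2, 37 of 72 were called lower, against 13.6% of all genes, with a median of -0.33, and at day 1 it was 7, against 7.80%. The day 1 count was 12 without vehicle replicate 1 of that day and 3 without either its vehicle replicate 2 or its C70 replicate 1. At day 0 none of the 72 was called, with a median of 0.03, against 8.97% of all genes called in either direction.

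By complex, the day 7 medians were -0.31 for 36 nuclear complex I genes, with 16 called lower, -0.35 for 9 of complex III, with 6 called lower, -0.32 for 12 of complex IV, with 6 called lower, and -0.31 for 15 of the ATP synthase, with 6 called lower. Complex II, which has no mitochondrially encoded subunit, had a median of -0.20 over 4 genes and no call. Those furthest down in complex I were Ndufa5 (-0.56 ± 0.08), Ndufa6 (-0.53 ± 0.07) and Ndufb7 (-0.53 ± 0.08, log2 fold change ± SE), all accessory subunits. In complex III they were Cyc1, the subunit that passes electrons to cytochrome c (-0.41 ± 0.07), Uqcrq (-0.40 ± 0.08) and Uqcr11 (-0.37 ± 0.08), and in complex IV Cox7a2 (-0.46 ± 0.08), Cox7c (-0.41 ± 0.07) and Cox6c (-0.38 ± 0.07). Of all genes, 4.85% were called lower at day 7. All values of this paragraph include day 7 vehicle replicate 1. Without it, 6 of all 72 nuclear subunits were called lower instead of 34, and the median over the 72 was -0.20 instead of -0.32.

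Set against each other within a library, the mitochondrial and nuclear sums gave a ratio that does not depend on scaling. Its log2 was 1.54, 1.84, 1.90 and 1.84 in vehicle and 2.41, 2.48, 2.45 and 2.36 in C70 libraries at day 7. Replicate 1 was the lowest of the vehicle libraries, and with or without it the groups did not overlap (vehicle mean 1.78 with it and 1.86 without it, C70 mean 2.42). At day 2 the ratio was 2.00, 2.05 and 2.02 in vehicle and 2.41, 2.38, 2.29 and 2.36 in C70 libraries, again without overlap. At day 1 it was 2.27 to 2.43 in vehicle and 2.47 to 2.67 in C70 libraries, also without overlap. In vehicle cells the ratio was 2.34 to 2.53 at day 0 and 1.54 to 1.90 at day 7, whereas in C70 cells it was 2.25 to 2.41 at day 0 and 2.36 to 2.48 at day 7. No test was made of this ratio. Adipocyte markers summed to 34270.0 to 40350.0 CPM in vehicle and 36660.0 to 40540.0 CPM in C70 libraries at day 7, with 2 of 15 called higher and none lower, while preadipocyte and fibroblast markers summed to 4362 to 5325 and 8822 to 10540.0 CPM, with 9 of 10 called higher. Of all genes 14.3% were called higher and 4.85% lower. The part of either in the ratio was not tested.

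Of 56 genes that transcribe, copy or process mitochondrial DNA and its RNA, 1 (1.8%) was called lower after C70 at day 0, against 3.09% of all genes, 7 (12.5%) at day 1, against 7.80% of all genes, and 7 (12.5%) at day 2, against 13.6%, with none called higher on these days. At day 7, 2 were called higher and 3 lower (5.4%), against 14.3% and 4.85%. Of 10 transcription genes, which include the mitochondrial RNA polymerase and its factors, 1 was called higher at day 7, Mterf1b, a termination factor (0.55 ± 0.22, adjusted p = 0.0463), and 1 was called lower, Mrpl12, a ribosomal protein also linked to the polymerase (-0.34 ± 0.07). Mrpl12 was also lower at days 1 (-0.48 ± 0.09) and 2 (-0.51 ± 0.08), and the elongation factor Tefm was lower at day 2 (-0.52 ± 0.08). Among 18 genes of replication and maintenance, Slc25a33, a pyrimidine nucleotide carrier of the inner membrane, was lower at day 1 (-0.52 ± 0.12), day 2 (-0.78 ± 0.09) and day 7 (-0.65 ± 0.06). The nucleases Dna2 (-0.45 ± 0.17) and Rnaseh1 (-0.33 ± 0.08) were lower at day 1, the primase Primpol (-0.37 ± 0.08) and the nuclease Mgme1 (-0.35 ± 0.09) at day 2, and the nuclease Exog (-0.35 ± 0.11) at day 0. Polg2, the accessory subunit of the DNA polymerase, was called higher at day 7 (0.34 ± 0.10). In the list of 28 RNA processing and stability genes, 1 was called lower at day 7, Fastk (-0.33 ± 0.04), and none higher, with a median over the list of -0.17. At day 2 the RNA granule protein Grsf1 was lower (-0.42 ± 0.04), and at day 1 the rRNA methyltransferase Tfb1m was lower (-0.46 ± 0.11), with Rcc1l (-0.42 ± 0.07) and Rpusd3 (-0.41 ± 0.08). Fastk was also lower at day 2 (-0.33 ± 0.04).

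Over the 8 group means of log2 CPM, the nuclear genes whose pattern was most like the mean of the 10 were Tnpo3 (Pearson r = 0.99), Adhfe1 (0.98), Fam126b (0.98), Vwa8 (0.98) and Fbxo45 (0.98), ranked among 4827 genes above the median level with a span of at least 0.5. The 8 points are groups that share the course of differentiation, so the values are a description. Among the mitochondrial genes themselves, the nearest neighbour by the same measure was mt-Rnr2 for mt-Rnr1 (0.99), mt-Nd2 for mt-Nd1 (0.99) and mt-Cytb for mt-Co1, mt-Nd4 and mt-Nd5 (0.99, 0.98 and 0.96). mt-Nd6 was most like mt-Rnr1 (0.98), and mt-Tm most like mt-Rnr2 (0.95).

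In all, 4 nuclear copies of mitochondrial genes were themselves in the table at low levels, where reads of the organelle and of the nucleus cannot be told apart. They were Gm13340, like mt-Co1, at 3.34 to 10.9 CPM, Gm13341, like mt-Co2, at 1.81 to 7.49 CPM, Gm28437, like mt-Co3, at 1.42 to 6.64 CPM, and Gm28438, like mt-Nd3, at 2.47 to 29.2 CPM. Their identity to the mitochondrial gene was 97.6%, 95.9%, 100% and 99.7%. In vehicle cells all 4 were called higher at day 7 than at day 0, against 36.7% of all genes, with log2 fold changes of 1.11 ± 0.13, 0.96 ± 0.16, 0.96 ± 0.17 and 2.67 ± 0.20 (SE). With C70 at day 7, Gm13341 (0.65 ± 0.13, adjusted p = 0.000183 by edgeR) and Gm28437 (0.58 ± 0.14, adjusted p = 0.00116 by edgeR) were called higher, and Gm13340 (0.20 ± 0.11) and Gm28438 (0.32 ± 0.15) were not, against 14.3% of all genes called higher.

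The values of these abundant genes were compared under 5 other ways of scaling the libraries. Quantile normalization was applied to log2 CPM and tested with limma, whereas the 4 others kept the edgeR test. With limma on TMM-scaled log2 CPM alone, 6 of 10 were called at day 7 (19.4% of all genes) and 1 at day 1 (20.6%). With DESeq2 size factors, upper-quartile factors, or TMM factors computed without the 10 genes, the day 7 log2 fold changes moved by no more than -0.0105 to 0.0058, and the same number, 6 of 10, were called. With library totals alone they were lower by 0.05 to 0.06 (median 0.38), again with 6 called. That scaling moved the median of all genes from day 0 to day 7 by -0.14 in vehicle and -0.17 in C70 cells, and the median rise of the 10 genes was then 1.16 and 1.73. The share of called genes that were higher after C70 at day 7 was 74.6% with TMM, 60.3% with library totals and 60.5% with quantile normalization. At day 0 it was 65.6% with TMM and 55.1% with library totals, and at day 1 it was 63.6% against 50.4% (50.9% with quantile normalization). Quantile normalization, which gives the gene of each rank the same value in every library, fixes the values at the top of the list, where 8 of the 10 genes stood. Under it 2 of 10 were called at day 7, mt-Tm (0.99) and mt-Nd6 (0.48), the least abundant members, against 17.6% of all genes. Of the others, mt-Cytb had 0.10, mt-Nd5 0.13 and mt-Nd2 0.19, mt-Co1 was at 0 and mt-Nd1 turned to -0.07 (log2 fold change). At day 1 quantile normalization turned mt-Cytb to -0.49 and mt-Nd5 to -0.33. Both were then called lower, among 4 of 10 called, against 22.5% of all genes.

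**Figure D5:**
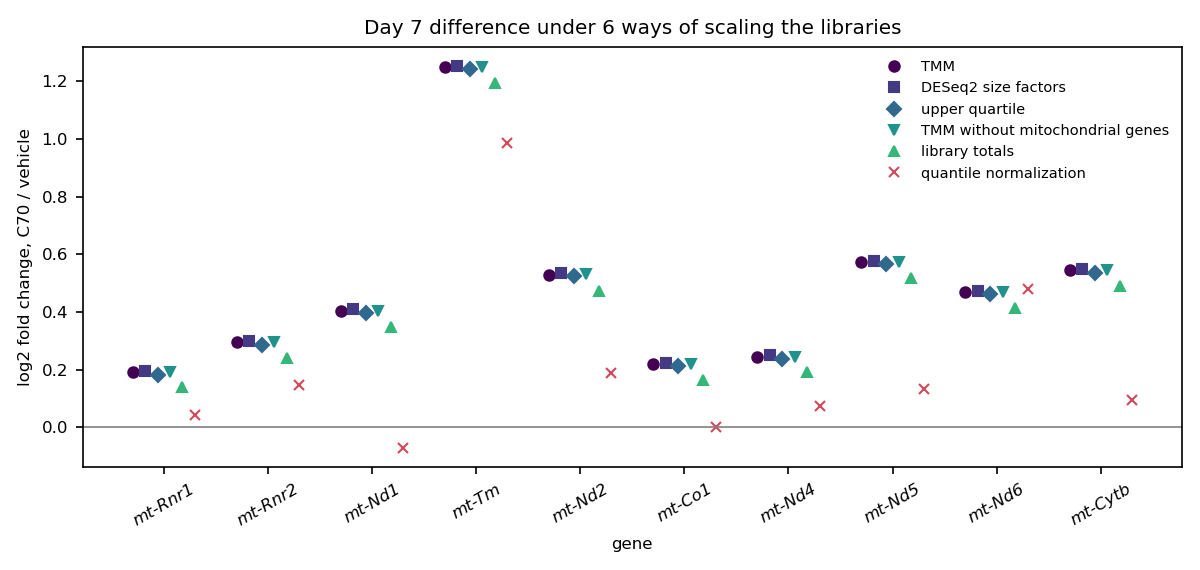
Log2 fold change of C70 against vehicle at day 7 for each mitochondrial gene, under 6 ways of scaling the libraries. The 4 other sets of scale factors move each gene by -0.0568 to 0.0058, while quantile normalization (crosses) brings the abundant mRNAs near 0 and leaves mt-Tm at 0.99 and mt-Nd6 at 0.48. The quantile values come from limma and the others from edgeR.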

How the data were processed

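RNA-seq of 29 libraries was analysed. Per the labels, RNA was extracted with Qiazol and miRNeasy columns, and strand-specific libraries were made with a NuGEN mRNA-Seq kit, whereas the study's text speaks of total RNA. The submitters' processing notes name STAR 2.7.2a, edgeR 3.26.8 and GRCm38. What the authors deposited are whole-number gene counts after their own filter. The table is called normalized, but its library totals differ. The counting program, its use of strand and multi-mapped reads, and the filter are not given in the sources used here.

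All counts were fitted in edgeR 4.0.16 (R 4.3.3) with TMM factors and 8 group means, by the quasi-likelihood test with Benjamini-Hochberg adjustment over 11959 genes in each of 13 comparisons. Genes were called at an adjusted p under 0.05 and a level more than 25% above the lower one. The members, gene lists and tests were chosen with earlier results of these data known. Every mt- gene is named, and from each list and C70 comparison up to 3 called genes with the largest change. The alternatives were other thresholds, DESeq2 1.42.0 and its size factors, upper-quartile factors, library totals, TMM factors without the 10 genes, quantile normalization and limma 3.58.1 with prior counts of 2 and 0.5, removal of low genes, fits of single comparisons with and without a replicate block, and leaving out each library. The same alternatives for the nuclear subunits were added after seeing the data. The fit was tested on simulated data that had the same spread for every gene and no course of differentiation. That run is therefore no test of the more variable rRNAs and mt-Tm. Symbols were found for 11953 genes and not for 6. Coordinates and sequences came from GENCODE M21, copies from BLAST 2.17.0, and plots from matplotlib 3.10.9. Total counts per library limit the precision of low genes.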

Additional observations from a re-analysis of the deposited data

Results flagged for a closer look

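In 60 sets of 4 libraries (10 genes, the share of counts and the ratio to nuclear OXPHOS counts, in 5 groups), 1 library stood far from the others of its group. It was mt-Nd6 in C70 replicate 2 at day 0, with 47.6 CPM against 65.8 to 68.9 CPM in the 3 others of the group. Chance marks about 1 in 20 such sets, which would be 3 here.

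The C70 difference changed between days by the interaction test for the genes that follow, where values are differences of log2 fold changes from day 0. For day 1 they were 0.69 for mt-Rnr1, 0.90 for mt-Rnr2 and 1.38 for mt-Tm. For day 7 they were 0.43 for mt-Nd1, 2.11 for mt-Tm, 0.61 for mt-Nd2, 0.68 for mt-Nd5, 0.74 for mt-Nd6 and 0.58 for mt-Cytb.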

How the results depend on the processing

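At the stricter fold change of 1.5, the number of mitochondrial genes called was 0 at day 2, 1 at day 7 and 1 in vehicle from day 0 to day 1, against 14.5%, 8.80% and 34.0% of all genes called in either direction under the same setting. On the adjusted p alone it was 2 at day 2 (50.7% of all genes), and 1 for the change of the C70 difference at day 2 (35.7%). Quantile normalization gave 4 at day 1 (22.5%), 2 at day 7 (17.6%) and 2 for the change at day 2 (26.5%). At day 0, limma with a prior count of 0.5 and DESeq2 called 1 each, mt-Tm (8.50% and 9.18%). With the groups of a comparison fitted alone, 1 was called at day 0 (9.53%), 2 at day 1 (21.9%) and 1 for the change at day 2 (27.8%).

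Replicate numbers did not pair the samples: correlations of same-numbered libraries ran from -0.20 to 0.21 over 13 pairs, and 3 vehicle libraries were closest to their own number. The fit with the replicate number as a block called 3 at day 0 (9.80% of all genes), 3 at day 1 (21.3%), 2 at day 2 (30.2%) and 1 for the change at day 2 (27.6%), and at day 7 again 6 (15.3%).

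Leaving out each library in turn gave 0 to 2 calls at day 1, 0 to 3 for the change of the C70 difference at day 1, and 6 to 7 at day 7, against 19.1 to 22.5%, 11.4 to 15.6% and 17.9 to 20.8% of all genes. Vehicle replicate 1 of day 1 gave both counts of 0 when removed. The count at day 1 was 2 on removing C70 replicate 2 of day 0, vehicle replicate 3 of day 1, or either of vehicle replicates 1 and 4 of day 7. For the change at day 1 it was 1 on removing vehicle replicate 1 or 3 or C70 replicate 2 of day 0, or vehicle replicate 2 or C70 replicate 1 of day 1.

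Some log2 fold changes turned sign or fell to 0. Quantile normalization gave mt-Co1 0.0481, -0.1399, -0.0699 and 0 on days 0, 1, 2 and 7, mt-Nd4 -0.0578 (day 0), mt-Nd5 -0.334 and mt-Cytb -0.4938 (day 1), mt-Tm -0.1969 (day 2), mt-Nd1 -0.0707 (day 7) and mt-Rnr1 in vehicle -0.0042 (day 1). DESeq2 size factors and DESeq2 itself gave -0.0078 for mt-Co1 at day 2. For mt-Nd4 at day 0, library totals gave -0.0207, upper-quartile factors -0.0078 and the replicate block -0.0061, and library totals gave -0.032 for mt-Cytb at day 1. Without single libraries the ranges were -0.0236 to 0.0278 for mt-Co1, -0.335 to 0.076 for mt-Rnr2 and -0.097 to 0.1971 for mt-Tm at day 2, -0.0076 to 0.0335 for mt-Nd4 at day 0, and -0.0517 to 0.1973 for mt-Rnr1 in vehicle at day 1. The cause of these turns was not tested, beyond what the construction of quantile normalization fixes.

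Removing the 25% of genes with the lowest mean level took out mt-Tm. For the 72 nuclear subunits called lower, an analysis chosen after seeing the data, library totals gave 13 at day 1 and 48 at day 7, quantile normalization 22 at day 7, the adjusted p alone 30, 56 and 63 at days 1, 2 and 7, and a fold change of 1.5 gave 0, 2 and 0. Low counts limit mt-Tm, at 10 to 121 per library.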
